A study of Rattus norvegicus with 5 samples.

Results

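The peaks described here lie within 2 kb past the annotated end of a rat gene and in no other marked gene or CpG island part: a peak was taken when the deposited annotation placed it in the downstream 2 kb window of at least 1 gene and in no promoter, upstream 2 kb window, exon, CpG island or CpG island shore. By that rule 2387 of 121816 peaks were downstream peaks in NSCs, 2775 of 137579 in Neurons and 2371 of 116091 in Astrocytes, which makes 7533 of 375486 peaks over the 3 lists. The rule read positions only and no measured value.

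DNA of each cell type was sonicated, immunoprecipitated with an antibody against N6-methyladenine (6mA), sequenced and compared with sequenced input DNA. The NSCs are neural stem cells of SCR022, a commercial line of adult rat hippocampal stem cells, and the other groups are labelled Neurons and Astrocytes, with no strain, age, treatment or source given in the labels used here. Each cell type has 1 immunoprecipitated library, and the NSCs library had 15760246 reads, the Neurons library 16095308 and the Astrocytes library 15767015, and inputs are samples for NSCs and Neurons only. With no replicate, no difference between cell types can be tested: shares carry exact 95% Clopper-Pearson intervals that cover counting error only, and neighbouring peaks are not independent. DNA enrichment cannot check a labelled cell type, and whether the enriched DNA holds 6mA was not tested.

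A gene's transcript is cut and polyadenylated at its annotated end, but RNA polymerase II runs on past that point before it lets go of the DNA. The stretch just past a gene is therefore still transcribed in active genes, and in dense regions it can also be the neighbourhood, or even the intron, of another gene. 6mA, adenine with a methyl group on its amino nitrogen, is a common mark of bacterial DNA, while its amount and source in mammalian DNA are disputed, and antibodies to it can also bring down DNA without the mark.

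The peak next to the microRNA gene Mir187 was among those with the highest enrichment in all 3 cell types, and 3 microRNA genes had a downstream peak in every cell type: Mir187, Mir628 and Mir3568. A further one, Mir509, had it in Neurons only. The mature microRNAs that these genes encode are printed from RefSeq (build GRCr8), 5′ to 3′, to show which products lie beside the peaks, with the seed, the bases 2 to 8 that pair with target messages, in capitals; Mir3568 is named only.
rno-miR-187-3p: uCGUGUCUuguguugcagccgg
rno-miR-187-5p: aGGCUACAacacaggacc
rno-miR-628: aUGCUGACauauuuacgagagg
rno-miR-509-3p: uGAUUGACaugucugcagugga
rno-miR-509-5p: uACUCCAGaauauggcaaucaug
The 5 seeds all differ. The Mir187 peak spanned 18:16388519-16389330 over the 3 lists, in the coordinates of the files, whose genome build the sources used here do not name. Its fold enrichment over input, a linear value computed by the authors, was 88.05 in NSCs, 109.6 in Neurons and 103.31 in Astrocytes. The Mir628 peak, at 8:79680971-79681781, lay inside an intron of Ccpg1 and had folds of 18.63 in NSCs, 17.59 in Neurons and 9.87 in Astrocytes. The Mir3568 peak had folds of 11.09, 7.69 and 14.14 in the same order, and the Mir509 peak, at X:155318413-155318882, had a fold of 27.77 in Neurons. Each list was called against its own input, so folds of separate lists stand side by side as descriptions. A difference between them is no measured change. The microRNA genes with a downstream peak numbered 10 of 466 in NSCs (2.15%), 7 in Neurons (1.50%) and 7 in Astrocytes (1.50%), as counted against the RefSeq table, below the 4.69%, 5.64% and 4.76% of named protein-coding genes.

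Downstream peaks were 1.96% (1.88 to 2.04) of all peaks in NSCs, 2.02% (1.94 to 2.09) in Neurons and 2.04% (1.96 to 2.13) in Astrocytes. Peaks of the upstream 2 kb window, outside exons, CpG islands, island shores and downstream windows, were about as many: 2343, 2748 and 2237. Promoter peaks were kept in this upstream class but left out of the downstream peaks, so the 2 classes are not exact counterparts. The rule left out 686, 837 and 658 further peaks of the downstream window, mostly because they also touched an exon (531, 620 and 497 of them). An intron of another gene held 319 downstream peaks in NSCs (13.4%), 325 in Neurons (11.7%) and 310 in Astrocytes (13.1%). In no case did the intron belong to the gene whose end lay beside the peak. A window placed past the end of a gene may give this by definition. The windows of several genes held 42, 49 and 41 downstream peaks. Across the larger chromosomes the share of peaks that were downstream was highest on chromosomes 1 and 3 (2.49% and 2.52% in NSCs) and low on chromosome 2 (1.49%).

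A typical downstream peak was about as enriched as any other peak, with a heavier upper tail. Its median fold was 12.54 in NSCs, 12.08 in Neurons and 12.61 in Astrocytes, against 12.19, 12.07 and 12.27 over all peaks of the same lists. The median width was 473, 469 and 454 bp, against 467, 456 and 447 bp. The folds of single downstream peaks ran from 3.3 to 151.7 in the NSCs list, from 2.96 to 201.47 in the Neurons list and from 3.38 to 201.96 in the Astrocytes list. The authors' score is 10 times the −log10 p of a peak, and its median was 90.1, 91.35 and 89.01 for downstream peaks against 86.8, 88.26 and 87.01 over all peaks.

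The upper tail was described by a measure chosen after the data were seen. It was the share of peaks in the top 10% of their list by score. That share was 12.4% (11.1 to 13.8; 296 peaks) in NSCs, 12.6% (11.4 to 13.9; 349 peaks) in Neurons and 12.2% (10.9 to 13.6; 290 peaks) in Astrocytes, where all peaks give 10.0%. All 3 intervals lie above the share of all peaks. Peaks of the upstream window stood at 11.7%, 10.95% and 11.5%, intron-only peaks at 11.2%, 11.1% and 11.2%, and peaks in no annotated class at 9.04%, 9.17% and 9.06%. The intervals of downstream and upstream peaks overlapped in every list, so at this depth the downstream window could not be set apart from the upstream one. Ranked by fold in place of score, the downstream share was 11.6% in NSCs, 11.5% in Neurons and 11.1% in Astrocytes, and the interval of the last (9.86 to 12.4) held the share of all peaks. In the top 1% by score the downstream share was 1.80% (1.31 to 2.42), 1.44% (1.03 to 1.96) and 1.56% (1.10 to 2.14), against 1.00% of all peaks. Upstream peaks stood there at 1.45% (1.01 to 2.02), 1.27% (0.889 to 1.77) and 1.21% (0.797 to 1.75), with intervals that overlapped the downstream ones in every list. Intron-only peaks stood at 1.05%, 1.07% and 1.08%. Wide peaks, of 1 kb or more, were 3.85%, 3.17% and 3.46% of downstream peaks against 4.12%, 3.44% and 3.37% of all peaks.

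**Figure D1:**
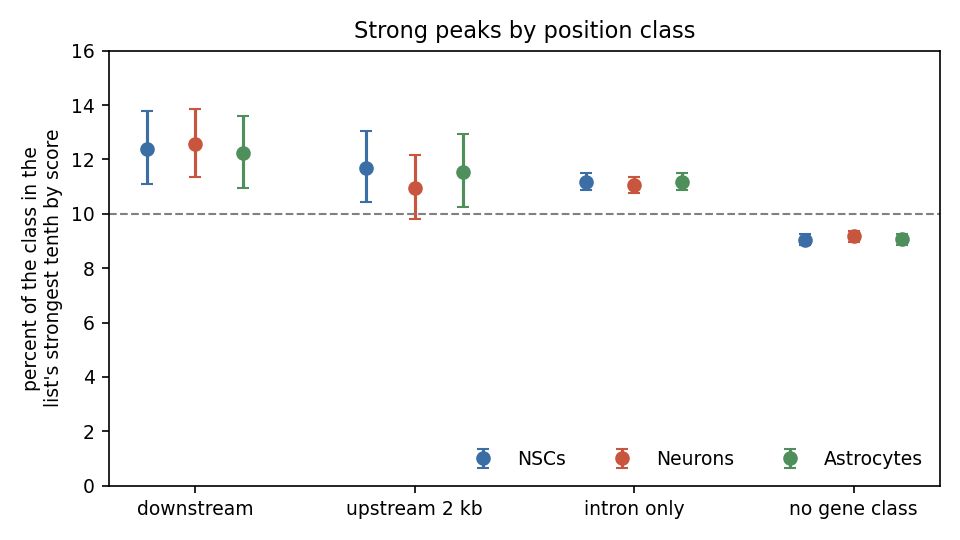
Percent of each position class in the top 10% of its list by score (y axis), for NSCs, Neurons and Astrocytes, with exact 95% intervals as bars. Downstream peaks stand at 12.2% to 12.6% and peaks in no annotated class near 9.1%, with upstream and intron-only peaks in between.

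The strongest downstream peaks of named genes present in every cell type lay beside genes of varied function, and the highest folds of each list, given above, belonged to predicted genes without a proper name. Among genes with a proper name, the lowest of the 3 folds of a gene set the order, and the leading 12 were Srp9, Mir187, Galr1, Stac, Banf2, Slc34a3, Il12a, She, Tgfbi, Nudt6, Fig4 and Slc35a5. Srp9 encodes a subunit of the signal recognition particle, which takes new secretory proteins to the endoplasmic reticulum. Its peak, at 13:100561177-100562023, had folds of 113.49 in NSCs, 98.3 in Neurons and 96.51 in Astrocytes. Srp9 had no gene body or promoter peak in NSCs or Neurons, and had both annotations in Astrocytes. Galr1, a receptor for the neuropeptide galanin, had a peak at 18:79240894-79241896 with folds of 86.03, 78.66 and 80.97 in NSCs, Neurons and Astrocytes. Galr1 also had 1 gene body peak in each list. Neither the Srp9 peak nor the Galr1 peak overlapped a region that the authors list as different between these cell types.

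Stac, an adaptor protein that binds voltage-gated calcium channels, had a peak at 8:119818224-119818910 with folds of 78.51 in NSCs, 121.05 in Neurons and 171.93 in Astrocytes. Tgfbi, a secreted matrix protein induced by TGF-beta, had folds of 64.54, 98.7 and 154.68 at 17:8398684-8399502. No downstream peak of either gene overlapped a region that the authors list as different. Slc34a3, a sodium-phosphate cotransporter, had folds of 68.07, 109.24 and 103.16 at 3:2446629-2447458. Its Neurons and Astrocytes peaks both overlapped regions that the authors list as higher than in NSCs. Banf2, a relative of the DNA-binding barrier-to-autointegration factor, had folds of 73.8, 107.61 and 83.1 at 3:138183861-138184862, and its Neurons peak overlapped a region listed as higher than in NSCs.

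The remaining shared peaks lay beside a growth factor antisense gene, signalling adaptors, a cytokine and enzymes. Nudt6, a Nudix hydrolase gene that lies antisense to the growth factor gene Fgf2, had a peak inside an Fgf2 intron at 2:124132208-124133406, with folds of 100.66 in NSCs, 62.43 in Neurons and 64.29 in Astrocytes. The peak of She, which encodes an SH2 domain adaptor, was 1379 bp wide in NSCs, at 2:189195039-189196538 over the 3 lists, with folds of 82.66, 74.18 and 64.83. Il12a, a subunit of the cytokine interleukin 12, had folds of 76.37, 65.41 and 65.12 at 2:165085495-165086316. Fig4, a phosphatase of the endosomal lipid PI(3,5)P2, had folds of 62.82, 61.9 and 69.44 at 20:45944535-45945522, and 8, 14 and 10 further peaks in its gene body. Slc35a5, of the nucleotide sugar transporter family, had folds of 60.47, 108.25 and 74.88 at 11:60636277-60636971.

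**Figure D2:**
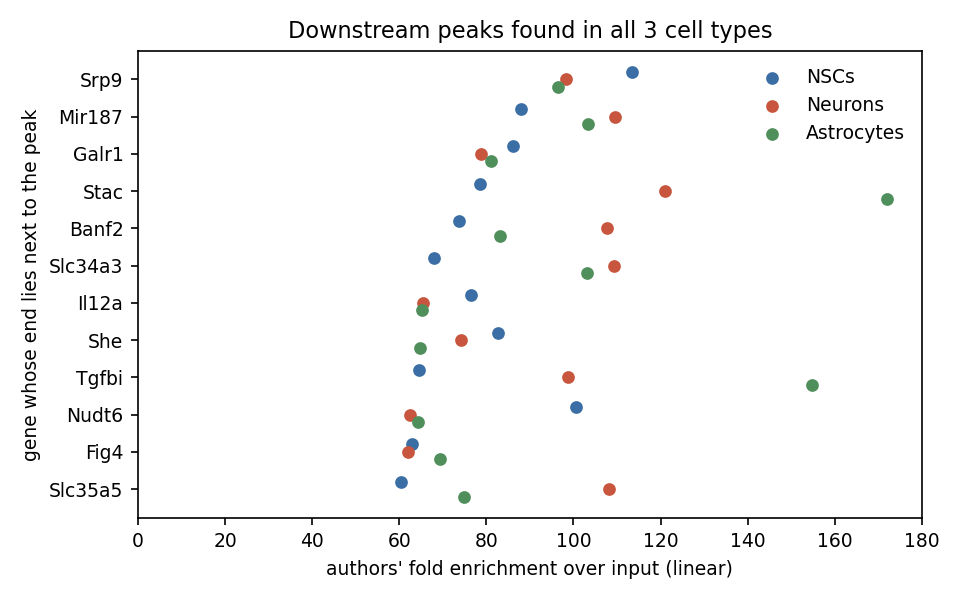
Fold enrichment over input (x axis, linear) of the downstream peak of each of the 12 leading genes (y axis), with 1 point for each of NSCs, Neurons and Astrocytes. The points of Galr1 lie between 78.66 and 86.03, those of Stac from 78.51 to 171.93 and those of Tgfbi from 64.54 to 154.68.

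Some of the highest folds of named genes in a single list belonged to other genes. Sept8, which encodes a septin of the cytoskeleton, had a fold of 97.91 in NSCs, 51.4 in Neurons and 50.52 in Astrocytes, and its NSCs peak overlapped regions listed by the authors as higher in NSCs than in either other cell type. Polr3g, a subunit of RNA polymerase III linked to the undifferentiated state, had folds of 53.1, 55.54 and 117.65. None of its downstream peaks overlapped a region listed as different. Gcg, the glucagon gene, had folds of 42.29 in NSCs, 101.75 in Neurons and 98.64 in Astrocytes, and the peaks of Neurons and Astrocytes overlapped regions listed as higher than in NSCs. Ephb3, Mylk3 and Idi1 showed how the edge of the 2 kb window can decide whether a peak counts. For Ephb3, an ephrin receptor, the peaks of NSCs (fold 82.83) and Astrocytes (147.42) were downstream peaks, while the overlapping Neurons peak, of fold 106.88 and ending at 83525942 rather than 83526031 on chromosome 11, was not. For Mylk3, a myosin light chain kinase of heart muscle, NSCs (86.66) and Neurons (164.34) counted and the Astrocytes peak (105.78) did not. For Idi1, an isomerase of the cholesterol pathway, Neurons (47.06) and Astrocytes (123.44) counted and the NSCs peak (73.19) did not. A peak at each of these positions was present in all 3 lists, while the downstream annotation was not. The Astrocytes peak at Idi1 also overlapped a region listed by the authors as higher than in NSCs.

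Downstream peaks of one cell type overlapped peaks of both others about as often as all peaks did. In NSCs 45.5% (43.5 to 47.6) overlapped a peak of both Neurons and Astrocytes by at least 1 bp, beside 43.6% of all NSCs peaks. In Neurons the share was 39.5% (37.7 to 41.4) beside 38.6%, and in Astrocytes 46.4% (44.3 to 48.4) beside 45.8%. A peak of neither other cell type was met by 32.1% of downstream peaks in NSCs, 35.4% in Neurons and 28.0% in Astrocytes, beside 32.1%, 36.1% and 29.2% of all peaks. The longest list, that of Neurons, had the lowest share found in both others. Where a downstream peak met a peak of another list, that peak was a downstream peak as well in 94.3% to 95.8% of cases.

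Strength and sharing went together. Each list was divided by score into 4 bins of equal size. In the weakest bin, 12.3% of downstream peaks in NSCs, 9.36% in Neurons and 13.9% in Astrocytes were found in both other cell types. In the strongest bin the shares were 91.7%, 90.0% and 94.2%. All peaks of the same bins gave 13.9%, 10.4% and 14.9% at the weak end and 90.6%, 89.1% and 94.3% at the strong end, so the gradient is one of the whole lists. When each list was shortened to its 58045 strongest peaks, 59.2% (56.4 to 62.0) of downstream peaks in NSCs, 57.6% (54.8 to 60.4) in Neurons and 58.2% (55.4 to 61.0) in Astrocytes were found in both others. Over all peaks these shortened lists gave 54.2%, 54.1% and 54.3%, which lie below the downstream intervals. Upstream and intron-only peaks were not counted in the shortened lists. In the full lists 46.5%, 39.9% and 49.3% of upstream peaks were found in both others, and 45.9%, 40.1% and 47.3% of intron-only peaks. All of these lie above the downstream shares of the full lists, so more sharing than all peaks is not particular to downstream peaks.

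**Figure D3:**
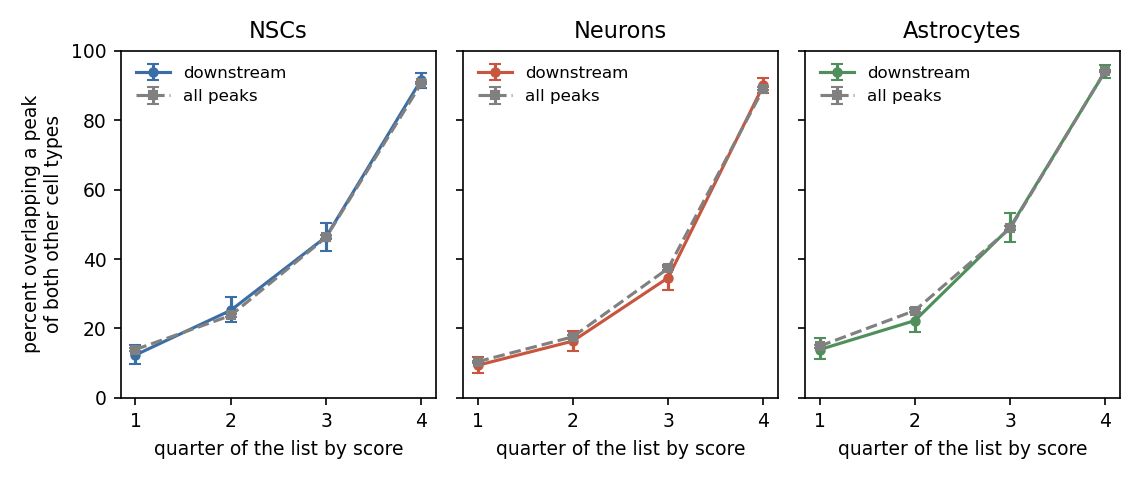
Percent of peaks that overlap a peak of both other cell types (y axis) by score bin of the list, 4 in all, from weakest to strongest (x axis), 1 panel per cell type, with downstream peaks and all peaks as separate points and exact 95% intervals as bars. Downstream peaks climb from 9.36% to 13.9% in the weakest bin to 90.0% to 94.2% in the strongest and follow all peaks closely.

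Joined across lists, the downstream peaks made 4531 separate loci. Of these, 1014 (22.4%) held a downstream peak of all 3 cell types, and 815 were seen as such in NSCs only, 1040 in Neurons only and 731 in Astrocytes only. Neurons and Astrocytes shared 383 loci without NSCs, NSCs and Neurons 320 without Astrocytes, and NSCs and Astrocytes 228 without Neurons. With a peak of any annotation counted, 1173 loci were covered in all 3. The whole lists were not joined in this way, so these locus counts have no share of all peaks to stand beside. Over the 1014 common loci the folds of the lists had a Spearman rho of 0.695 for NSCs and Neurons, 0.707 for NSCs and Astrocytes and 0.764 for Neurons and Astrocytes. These correlations run across loci that share sequence, mappability and library depth, and describe the lists only.

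The downstream peaks lay beside 4382 gene symbols, of which 1041 (23.8%) had one in all 3 cell types. This share was not counted over genes with other peaks, so it has nothing to stand beside. Many symbols were placeholders of predicted genes, and 42.9% of the 2357 genes in NSCs, 43.9% of 2725 in Neurons and 43.5% of 2338 in Astrocytes had a proper name. By RefSeq type, 1013 genes were protein-coding in NSCs, 1216 in Neurons and 1026 in Astrocytes, and 272, 303 and 267 were long noncoding RNAs. Of the named protein-coding genes with a downstream peak, 47.0% (43.9 to 50.2) in NSCs, 43.1% (40.3 to 46.0) in Neurons and 45.7% (42.5 to 48.8) in Astrocytes had no peak in the gene body or promoter. Over all named protein-coding genes that share was higher, at 56.7%, 53.6% and 56.6%. A gene had 2 or more separate downstream peaks in 70, 99 and 73 cases.

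The share of genes with a downstream peak rose slightly with gene length, and the share with a gene body peak rose steeply. Of 20887 named protein-coding genes in RefSeq, 4.69% had a downstream peak in NSCs, 5.64% in Neurons and 4.76% in Astrocytes. The genes were ordered by length into 5 bins of equal size, with a median length of 1.30 kb in the shortest and 115 kb in the longest. Between these bins the share went from 4.26% (3.67 to 4.92) to 5.55% (4.88 to 6.29) for the NSCs list, from 4.93% (4.29 to 5.63) to 6.78% (6.03 to 7.58) for Neurons and from 4.16% (3.58 to 4.82) to 5.94% (5.24 to 6.70) for Astrocytes. The intervals overlapped for NSCs and did not for Neurons or Astrocytes. The shares of the bins in between lay within these ranges. The share of genes with a gene body peak went from 2.63% to 86.9%, from 2.73% to 88.7% and from 2.66% to 87.0% over the same bins. In the bin of the shortest genes a downstream peak was more frequent than a gene body peak, and in the bin of the longest genes far less frequent. Genes with a gene body peak had a downstream peak in 5.71% (5.22 to 6.22) of cases in NSCs, against 4.02% (3.68 to 4.37) of genes without. In Neurons these shares were 6.97% and 4.64%, and in Astrocytes 5.96% and 3.95%. Genes with a gene body peak were also the longer ones, with a median of 50.5 kb against 8.04 kb in NSCs, and the part of length in this difference was not tested.

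**Figure D4:**
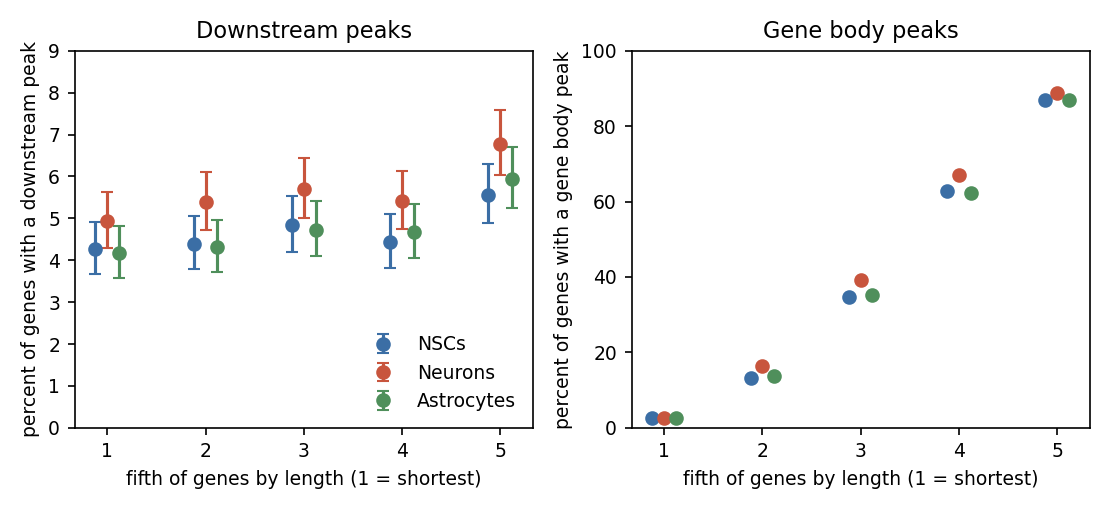
Percent of named protein-coding genes with a downstream peak (left panel) and with a gene body peak (right panel) by gene length in 5 bins from shortest to longest (x axis), for each cell type, with exact 95% intervals on the downstream shares. The downstream share stays between 4.16% and 6.78% while the gene body share climbs from between 2.63% and 2.73% to between 86.9% and 88.7%.

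Several genes carried a pair of downstream peaks. Prss40, a serine protease, had 2 separate peaks in every cell type, spanning 9:41058827-41060015 in Neurons, with folds of 46.07 and 41.93 in NSCs, 78.5 and 70.97 in Neurons, and 134.15 and 51.37 in Astrocytes. Prok2, a secreted peptide that guides new neurons to the olfactory bulb, had folds of 26.33 and 21.31, 41.75 and 28.92, and 38.17 and 21.63 in the same order, from 4:132157895-132158872 in NSCs. Gimap9, a GTPase of lymphocytes, had folds of 24.42 and 22.63, 42.04 and 21.58, and 66.17 and 22.69. Slc17a9, which loads ATP into vesicles, had folds of 21.73 and 10.2 in NSCs, 45.44 and 16.04 in Neurons, and 32.27 and 18.19 in Astrocytes. Hdac9, a class IIa histone deacetylase, had both peaks in Neurons (42.25 and 33.8) and 1 in NSCs (15.04) and in Astrocytes (29.27). Vom2r21 had 3 in Astrocytes and Tmem258b 3 in NSCs, the largest number of any gene.

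Downstream peaks within a host gene included well-known overlapping gene pairs. The downstream peak of Ctsa, which encodes the lysosomal protein cathepsin A, lay in an intron of the phospholipid transfer protein gene Pltp. This peak, at 3:161305961-161306976, had folds of 39.17 in NSCs, 42.21 in Neurons and 48.91 in Astrocytes. Fam26e within Trappc3l had folds of 37.09, 52.11 and 68.71. Leprot, which shares its first exons with the leptin receptor gene Lepr, had folds of 17.55, 12.79 and 18.15. Gpr34, a receptor of microglia nested in the synaptic scaffold gene Cask, had folds of 20.06, 19.32 and 12.72. Peaks like these cannot be assigned to the nested or the host gene. In 43 loci the peak lay beside the ends of at least 2 named genes, and 8 of these loci held downstream peaks of all 3 cell types. Between Acox2, a peroxisomal oxidase of bile acid synthesis, and Kctd6, at 15:18483040-18483727, the folds were 24.61, 38.98 and 40.24. Between Cyb5r2 and Ppfibp2 they were 17.95, 46.71 and 21.11.

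Of 386 genes in 15 lists of neural, glial, signalling and enzyme genes, 22 had a downstream peak in NSCs (5.70%, 3.61 to 8.50), 22 in Neurons and 23 in Astrocytes (5.96%), near the share of all protein-coding genes. In any cell type there were 40 (10.4%, 7.51 to 13.8), and 9 in all 3 (2.33%, 1.07 to 4.38). These last 2 shares were not counted over all protein-coding genes, so they have nothing to stand beside. None of the 22 stem and progenitor genes, Sox2 and Nes among them, and none of the 16 genes of adenine methylation enzymes had one in any list; with so few genes a share of up to 15.4% and 20.6% is still allowed. N6amt1, a methyltransferase proposed to act on DNA, and Txnrd3, a thioredoxin reductase, had no downstream window peak of any kind in any list.

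The 9 genes with a downstream peak in every cell type came from several lists. Sod1 and Sod2, the cytosolic and mitochondrial superoxide dismutases, had the highest folds: 35.9, 51.93 and 33.08 for Sod1 and 42.66, 27.53 and 27.85 for Sod2 in NSCs, Neurons and Astrocytes. They were the only 2 of the 25 redox enzymes with a downstream peak, which is 8% in each list. The interval of this share held the share of all named protein-coding genes in NSCs (4.69%), Neurons (5.64%) and Astrocytes (4.76%). C1qc, a complement subunit made by microglia, had folds of 31.73, 19.27 and 18.29, and Tmem119, a microglial surface protein, 13.1, 13.46 and 9.94. Elavl3, a neuronal RNA-binding protein, had folds of 19.51, 15.06 and 18.61. Mbp, the myelin basic protein of oligodendrocytes, had folds of 7.86, 14.25 and 17.17 over a wide peak, of 1690 bp in NSCs. Wnt1, a secreted ligand, had folds of 13.96, 8.51 and 12.86, and its receptor family member Fzd7 16.3, 10.87 and 17.65. The netrin receptor Unc5c had folds of 9.5, 8.43 and 11.77. Markers of microglia and oligodendrocytes, cell types that no group is labelled as, were thus among the genes with a downstream peak in every list. Most markers of these cell types had none: 11 of 14 for microglia and 14 of 15 for oligodendrocytes had no downstream peak in any list. Enrichment of DNA beside a marker gene is no measure of its expression.

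Genes of neuronal identity and transmission that had a downstream peak mostly had it in 1 or 2 lists, and the intervals of these small lists held the shares of all protein-coding genes with 1 exception. That exception was neuronal structure genes in Astrocytes, with 4 of 21 (19.0%, 5.45 to 41.9): Elavl3, Elavl4 (8.91), Calb2 (9.04) and Snap25 (10.18). Of the neuronal fate transcription factors, Neurog2 was among those with a downstream peak in NSCs (fold 7.08), and Lhx2 had one in Neurons (9.4) and Astrocytes (7.23). Of 26 glutamate receptor genes, 3 had one in NSCs, 3 in Neurons and 2 in Astrocytes: Grik1 in NSCs (15.04) and Neurons (11.21), Grik3 in Neurons (17.8) and Astrocytes (11.8), Grid1 in Neurons (9.63) and Astrocytes (10.93), and Gria4 (8.78) and Grin2b (12.54) in NSCs. Of 24 genes of GABA and glycine signalling, the receptor subunits Gabra2 (22.57) and Glra3 (20.06) had one in NSCs, the GABA-making enzyme Gad1 (12.72) and the glycine receptor subunit Glra2 (16.9) in Neurons, and 0 genes in Astrocytes. Snap25, of the vesicle fusion machinery, had one in NSCs (15.32) and Astrocytes (10.18), at neighbouring but separate positions. Among 25 astrocyte markers the glutamate transporter Slc1a2 (8.8) and the transcription factor Sox9 (8.76) had one in Neurons, and 0 markers had one in Astrocytes.

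Olfactory receptors and keratins stood above the share of all protein-coding genes in at least 1 list, and zinc finger, histone and ribosomal protein genes below it. Of 1197 olfactory receptor genes in RefSeq, 76 had a downstream peak in NSCs (6.35%, 5.03 to 7.88), 98 in Neurons (8.19%, 6.70 to 9.89) and 78 in Astrocytes (6.52%, 5.18 to 8.07), and all 3 intervals lie above the shares of all protein-coding genes (4.69%, 5.64% and 4.76%). Gene body peaks were found in 32, 30 and 22 of these short genes. Olr40 was among the 27 with a downstream peak in every cell type, with folds of 31.11, 32.84 and 44.54. Olr86 had 23.42, 37.43 and 34.53. Of 55 keratins, 6 had a downstream peak in NSCs (10.9%, 4.11 to 22.2), 12 in Neurons (21.8%, 11.8 to 35.0) and 5 in Astrocytes (9.09%), and Krt1 had folds of 44.69, 58.93 and 40.86. Zinc finger genes named Zfp or Znf went the other way, with 7 of 466 in NSCs (1.50%, 0.606 to 3.07), 15 in Neurons (3.22%, 1.81 to 5.25) and 13 in Astrocytes (2.79%, 1.49 to 4.72), and 0 in all 3, with all intervals below those shares. Histone genes had 0 of 79 in each list, which allows a share of up to 4.56%. Of 306 ribosomal protein genes, 3 had a downstream peak in NSCs (0.980%, 0.203 to 2.84), 5 in Neurons and 5 in Astrocytes (1.63%, 0.533 to 3.77, in both). By symbol alone the deposited annotation named 7, 8 and 11 of this family, pseudogenes among them. Genes of a family lie in clusters and resemble one another, so reads may be shared between copies and members of a family are not independent. The shares of these families and of the microRNA genes were counted over RefSeq genes. A RefSeq gene that the deposited annotation lacks, or names in an unmatched way, could not count as having a downstream peak. Peaks that also touched an exon, promoter, upstream window, CpG island or shore were left out, and family shares with them kept were not counted.

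The authors' 6 comparison tables list regions higher in one immunoprecipitated library than in another. The pair and the direction were read from the table names, positive as higher in the library named first, and 74.3% to 84.3% of the listed regions overlapped a peak of the library so read as higher, against 6.45% to 16.1% for the lower one. Of the Neurons downstream peaks, 586 of 2775 (21.1%, 19.6 to 22.7) overlapped a region listed as higher than in NSCs, where all Neurons peaks give 19.7%. Of the NSCs downstream peaks, 408 (17.1%, 15.6 to 18.7) overlapped a region higher than in Neurons, against 16.9%. Of the Astrocytes downstream peaks, 369 (15.6%, 14.1 to 17.1) overlapped a region higher than in NSCs, against 15.0%, and 506 NSCs peaks (21.2%, 19.6 to 22.9) one higher than in Astrocytes, against 20.2%. For Neurons over Astrocytes the count was 651 (23.5%, 21.9 to 25.1) against 22.1%, and for Astrocytes over Neurons 243 (10.2%, 9.06 to 11.5) against 11.2%. Each interval held the share of all peaks, so downstream peaks were listed as different about as often as any other peak. Of the downstream peaks so listed, 81.6% to 90.1% had no peak at all in the list of the lower cell type. Over all peaks so listed the range was much the same, 80.9% to 91.8%. The comparisons share libraries and are given side by side only.

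**Figure D5:**
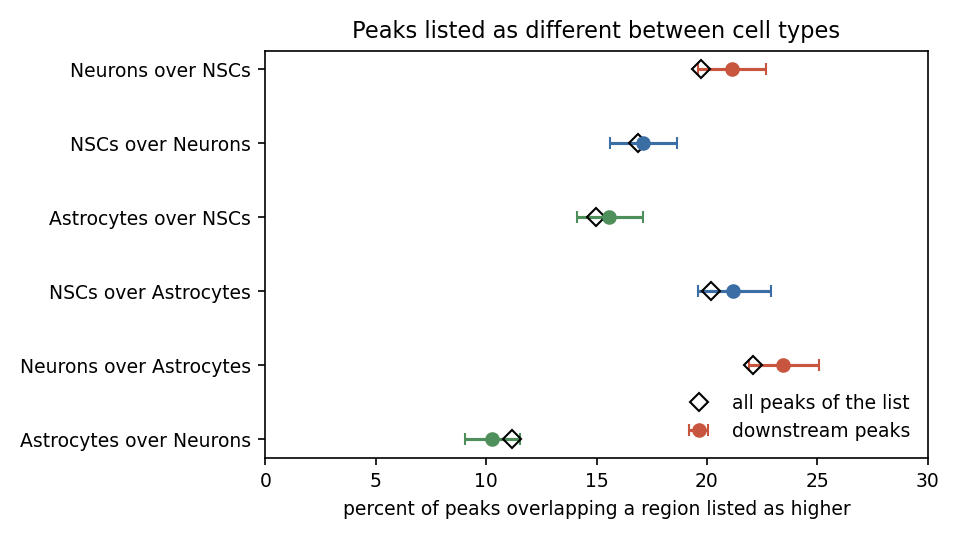
Percent of peaks of the higher cell type that overlap a region listed as higher (x axis) for the 6 comparison tables (y axis), with downstream peaks as filled points with exact 95% intervals and all peaks of the list as open diamonds. Each diamond lies within the interval of its downstream share, from 10.2% for Astrocytes over Neurons to 23.5% for Neurons over Astrocytes.

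Among named genes, the downstream peaks with the highest fold between libraries lay beside genes of varied function. Cntnap5c, a contactin-associated adhesion protein, was listed in the authors' deposited table of Neurons over NSCs with a fold of 22.21, and in that of Neurons over Astrocytes with 19.75, at 13:7537583-7538123. Mir509, whose mature products are printed above, had 21.45 as its fold in the authors' deposited table of Neurons over NSCs. Eif2s3, a subunit of the translation initiation factor eIF2, had 20.97 in the authors' deposited table of Neurons over NSCs and 19.93 in that of Astrocytes over NSCs. The inhibitory receptor subunit genes Gabra2 and Glra3 had folds of 23.92 and 20.09 in the authors' deposited table of NSCs over Astrocytes, and Glra3 had 18.25 in that of NSCs over Neurons. Zfp131, a zinc finger transcription factor, had a fold of 22.59 for Astrocytes over NSCs in the authors' deposited table. Aph1b, a subunit of gamma-secretase, led Astrocytes over Neurons with a fold of 20.51 in the authors' deposited table. In the list of the higher cell type the fold over input was 21.73 for Cntnap5c, 22.57 for Gabra2, 21.63 for Zfp131 and 11.67 for Aph1b, and none of these peaks overlapped a peak of the lower cell type.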

How the data were processed

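Reads were aligned with BWA, per the submitters' processing notes, which give no version. The sources used here name no genome build, annotation source or peak caller. Read counts per library, with mapping rates as a percent of the reads, come from the mapping summary deposited by the authors, and 1 row of that summary belongs to no sample and was not used. The authors called peaks for each cell type against its input, and the score, deposited as 10 times the −log10 p, is at least 50 in every list. The authors' fold is deposited as a fold enrichment, against input or, in the comparison tables, against another library. The sources used here do not say how it was computed. Some folds recur at the same value within a list, such as 12.54 in NSCs, 9.66 in Neurons and 10.18 in Astrocytes. Whether such folds reflect the local input of each peak was not tested.

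Peaks were read as deposited after 6 blank lines were skipped. Width is end minus start, and an overlap of 1 bp or more made peaks of separate lists shared. A symbol was called a placeholder when it was a locus or clone number. Of 4382 gene symbols 2618 (59.7%) matched RefSeq GRCr8, and of the named ones 1926 of 1944 (99.1%). RefSeq gave names, types, lengths and microRNA sequences, no coordinates. Genes named were the 12 with the largest lowest fold over the 3 lists, the 8 with the largest fold in each list, up to 8 per list with several peaks, the 5 with the largest fold per comparison table, genes of the gene lists, and N6amt1 and Txnrd3; not all are printed, and 1 is not reported here. The nested and paired genes, Mir628, Mir3568, Olr40 and Krt1 were chosen after their values were seen. The members and lists were chosen with earlier results of these data known. The overlap code was tested on simulated intervals. Python 3.11.15, pandas 2.3.3, numpy 2.4.6 and SciPy 1.17.1 were used. No p was computed, since each cell type has 1 library.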

Additional observations from a re-analysis of the deposited data

How the results depend on the processing

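Of 95 alternative values 59 stayed within the interval of the value reported (or, for the count of genes, near it) and 36 moved. Without peaks in introns, downstream peaks were 1.70%, 1.78% and 1.78% of peaks (NSCs, Neurons, Astrocytes). With a score of at least 100 the Neurons share was 2.15%; the median fold was 18.81, 19.41 and 19.97, the median score 206.07, 206.55 and 218.66 and the median width 615, 589 and 590 bp. The share found in both other cell types was then 62.7%, 52.1% and 63.7% and in neither 20.5%, 27.8% and 15.5% (all peaks: 57.4%, 49.9% and 60.2%, and 24.0%, 29.3% and 19.6%), and 612 genes had a downstream peak in all 3. With the 58045 strongest peaks of each list the downstream share was 2.05% in NSCs and 2.15% in Neurons, the share in both 59.2%, 57.6% and 58.2% and in neither 24.4%, 22.7% and 21.4% (all peaks: 26.7%, 24.7% and 24.9%). With an overlap of at least 50% the share in neither was 34.1% in NSCs and 37.3% in Neurons. All peaks were not counted at this overlap, so these 2 shares have nothing to stand beside. With a comparison score of at least 100 the shares listed as higher were 3.03% (Neurons over NSCs), 1.93% (NSCs over Neurons), 1.94% (Astrocytes over NSCs), 3.14% (NSCs over Astrocytes), 2.70% (Neurons over Astrocytes) and 0.717% (Astrocytes over Neurons), beside 2.61%, 1.91%, 1.51%, 2.54%, 2.77% and 0.849% of all peaks. The stricter settings keep fewer and stronger peaks by construction. Upstream and intron-only peaks were not counted under them. The share in the top 10% by score and its 3 alternatives were chosen after seeing the data. No paired analysis was possible because each cell type has 1 library. Depth limits weak peaks most, and a peak missing from a list is one not called at this depth.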

Other observations

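Chromosome Y held 0 downstream peaks in NSCs, 1 in Neurons and 1 in Astrocytes. The share of named protein-coding genes with a downstream peak was 4.69% for NSCs, 5.64% for Neurons and 4.76% for Astrocytes, and the families below had intervals that held these values. The 183 vomeronasal receptor genes had a downstream peak in 11 cases for NSCs (6.01%), 10 for Neurons (5.46%) and 12 for Astrocytes (6.56%), and 399 solute carriers in 15, 21 and 14 cases, with 6 carriers in all 3. Of 95 potassium channel genes 5, 2 and 4 had one.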
